A study of Homo sapiens with 9 samples.

Results

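The genes described here had about the same mRNA level in WT and A20-KO HCT116 cells and a lower level in A20-RE cells. They were chosen by their measured FPKM in the 9 libraries of the series. FPKM are reads scaled to gene length and to a depth set for each library, here not its read total. A protein-coding gene was a member when its largest group mean was at least 1 FPKM, the ratio of (A20-KO mean + 0.1) to (WT mean + 0.1) lay between 0.8 and its inverse, the ratio of (A20-RE mean + 0.1) to (A20-KO mean + 0.1) was at most 0.67, and each of its A20-RE values lay below all its WT and A20-KO values. The rule took 271 genes, which is 2.39% of the 11337 protein-coding genes that reached 1 FPKM in a group, of 19951 protein-coding genes and 58735 genes in all. Because all 3 contrasts between the groups entered the rule, the levels of the members are given as a description and carry no test.

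HCT116 is an established human colorectal carcinoma line. The 3 groups had 3 libraries each: wild-type cells (genotype A20-WT in the labels, WT here), cells in which A20 was targeted by CRISPR with a guide RNA in LentiCRISPR v2 (A20-KO), and A20-KO cells that carry a Flag-tagged A20 expressed from a CMV promoter (A20-OE in the labels, called A20-RE, for rescue, in the study). Whether the edited cells were 1 clone or a pool was not given in the sources used here, and an empty-vector group was not analysed here, so the vector and the A20 it carries cannot be told apart. Nothing in the labels says that libraries of a group came from separate cultures, so the spread between them may be technical. RNA was measured in bulk, and fewer cells of a type and less RNA per cell cannot be told apart.

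A20, the product of TNFAIP3, is a ubiquitin-editing enzyme that damps signalling from cytokine and Toll-like receptors to the transcription factor NF-kB. The genes it is best known to hold back are NF-kB targets such as chemokines and NF-kB inhibitors. The members span many other functions, among them heat shock proteins, which fold other proteins under the transcription factor HSF1, and enzymes of sterol and fatty acid synthesis, which are under SREBP transcription factors.

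The libraries held between 23406222 and 24963691 reads on genes, recovered from FPKM and gene length. The depth implied by the FPKM differed from these totals. The total over the implied depth ran from 0.950 in WT 2 to 1.07 in A20-RE 3. Mitochondrial genes took 7.52% to 10.1% of the reads in WT, 9.18% to 11.9% in labelled A20-KO and 12.0% to 13.95% in A20-RE, so this share was highest where the members were low, and its part in their levels was not tested. TNFAIP3 itself was at 0.869, 0.8002 and 0.736 FPKM in WT, at 1.93, 2.16 and 1.04 FPKM in labelled A20-KO, and at 58.7, 66.5 and 56.5 FPKM in A20-RE. The targeted gene thus had more mRNA under the A20-KO label than in WT (log2 fold change 0.95, adjusted p = 0.018, limma). Such libraries are called "labelled A20-KO" because the mRNA level could not check the label. These data hold no measure of A20 protein, and the study examined A20 expression in the A20-KO and A20-RE cells separately. Of 14 colon epithelium markers 8 reached 1 FPKM in a group, against 0 of 10 immune cell markers, 0 of 8 endothelium markers and 2 of 10 fibroblast markers. The summed immune markers were at 0.654 to 0.667 FPKM in WT, at 0.440 to 1.12 FPKM in A20-RE and at 0.510 to 0.848 FPKM in labelled A20-KO. The summed fibroblast markers were at 5.08 to 6.48, 12.5 to 13.7 and 13.4 to 16.5 FPKM in the same order.

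Most members lay close to the bound of the rule. Of the 271 ratios of A20-RE to labelled A20-KO, 8 were at most 0.4, 27 lay between 0.4 and 0.5, 84 between 0.5 and 0.6 and 152 between 0.6 and 0.67, with a median of 0.610 and a lowest value of 0.0376. Against WT the median ratio of A20-RE was 0.566. The labelled A20-KO mean was below the WT mean in 159 members and above it in 112. The gap between the groups was small for many genes: the lowest of the 6 WT and labelled A20-KO values exceeded the highest A20-RE value by at least 1.2 times in 174 members, by at least 1.5 times in 37 and by at least 2 times in 7. The last members inside the bound were ILKAP, ECHS1, XRCC3 and INO80E with ratios of 0.668, 0.668, 0.669 and 0.669. The first genes outside it were HAUS5, POLD2, TFAP4 and C7orf50 with 0.6704, 0.671, 0.671 and 0.671, so nothing in the values separates both sides.

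**Figure D1:**
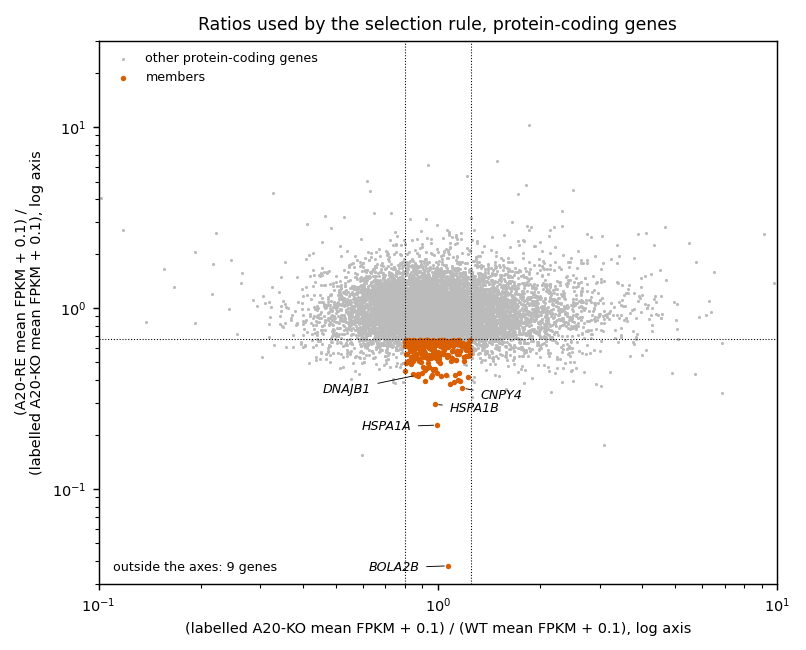
Ratios of group mean FPKM (each with 0.1 added) for protein-coding genes at 1 FPKM or more in a group, labelled A20-KO to WT on the horizontal log axis and A20-RE to labelled A20-KO on the vertical log axis. Dotted lines are the bounds of the rule (0.8, its inverse and 0.67); the 271 members fill the edge of the cloud just below 0.67, and BOLA2B, HSPA1A and HSPA1B lie lowest.

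In a limma fit on log2(FPKM + 0.1) over 21636 genes, 33 of the 271 members passed both a Benjamini-Hochberg adjusted p of 0.05 and a 2-fold change as lower in A20-RE than in labelled A20-KO, against 0.832% of all genes tested. At the adjusted p alone the members were 215, against 4.54% of all genes lower and 4.43% higher. Against WT 54 members passed both bounds as lower, against 4.21% of all genes. The rule used these contrasts and its lack of overlap, which 9.60% of all genes tested showed, so nothing is read from these counts. With a median-of-ratios scaling the rule took the same 271 genes. That scaling had the same factor, 1.01, in each library, so it could not change the balance between them. Scaled to total reads the rule took 360 genes, 262 of them among the 271. Without A20-RE 3 it took 375 genes and shared 262 of the 271, and without library 2 labelled A20-KO 359 and 237. Without WT 1 it took 333 genes, 219 of them among the 271, and without library 3 labelled A20-KO it took 201, of which 160 were among the 271.

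The values by library of the 14 members with the lowest ratios differ in how far the groups stood apart. BOLA2B, of the BolA family of iron-sulfur cluster assembly proteins, was at 0.325, 5.34 and 17.6 FPKM in WT, at 24.1, 0.387 and 0.534 FPKM in labelled A20-KO, and at 0.157, 0.207 and 0.287 FPKM in A20-RE. Its place at the head of the list rests on 3 of the 6 libraries outside A20-RE, in which it had 182, 602 and 798 reads against 5 to 17 in the other 6. BOLA2, a near-identical copy in the same chromosome arm, had 1 to 9 reads in each library, and how reads are split between both copies is uncertain.

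**Figure D2:**
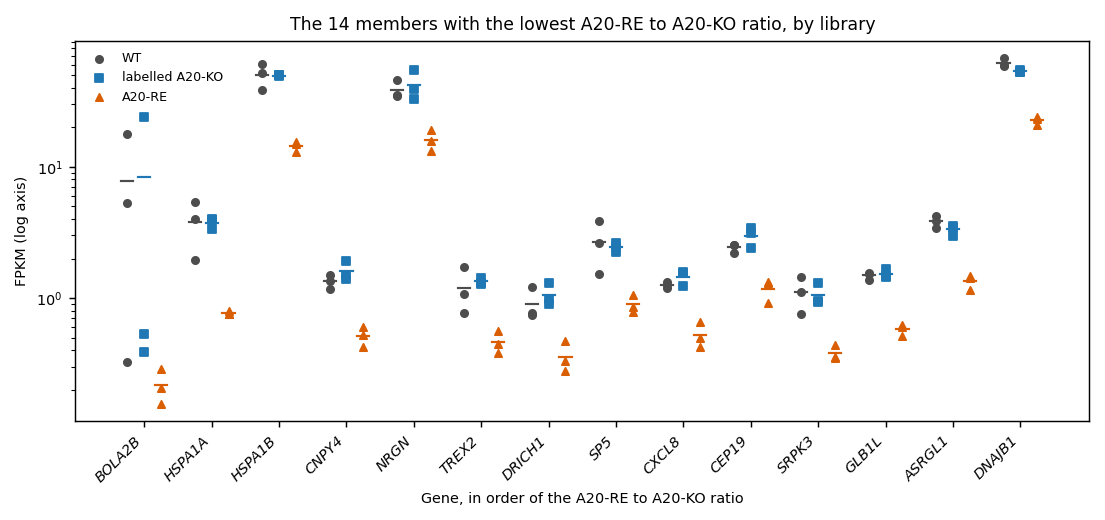
FPKM (log axis) of the 14 members with the lowest A20-RE to labelled A20-KO ratio in each of the 9 libraries; points are libraries and bars are group means. A20-RE lies below both other groups in each gene, by a clear step in HSPA1A, HSPA1B, GLB1L and DNAJB1, whereas the WT and labelled A20-KO libraries of BOLA2B range from 0.325 to 24.1 FPKM.

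Of the 15 groups by role, heat shock proteins and co-chaperones had the lowest median ratio, 0.482 over 6 genes, and 3 of them were among the 7 members whose groups stood apart by at least 2 times. HSPA1B (ENSG00000204388, chromosome 6, 31827735 to 31830255, plus strand, GRCh38) encodes the stress-induced HSP70 and was at 38.5, 51.9 and 60.8 FPKM in WT, at 49.0, 49.6 and 49.7 FPKM in labelled A20-KO and at 14.9, 13.0 and 15.4 FPKM in A20-RE, a ratio of 0.294. HSPA1A (ENSG00000204389, 31815464 to 31817946 on the same strand), which encodes the same protein, was at 1.96, 3.997 and 5.35 FPKM, then 3.93, 3.36 and 3.97 FPKM, then 0.758, 0.795 and 0.754 FPKM, a ratio of 0.226. All the A20-RE libraries lay far below the other 6 in both genes. Their coding sequences are nearly identical, so the split of reads between them is uncertain, but their sum was 40.5 to 66.2 FPKM outside A20-RE and 13.8 to 16.1 FPKM within it. DNAJB1, the HSP40 that works with HSP70, was at 59.5, 58.4 and 67.4 FPKM in WT, at 52.98, 52.8 and 54.4 FPKM in labelled A20-KO and at 23.9, 20.8 and 23.1 FPKM in A20-RE. The lowest of the 6 other libraries was 2.47 times the highest A20-RE library for HSPA1A, 2.50 times for HSPA1B and 2.20 times for DNAJB1.

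The remaining chaperone members had smaller steps. HSPE1, the mitochondrial HSP10, was at 38.8, 48.7 and 43.9 FPKM in WT, at 38.4, 26.8 and 43.3 FPKM in labelled A20-KO and at 21.3, 20.5 and 21.2 FPKM in A20-RE. It overlaps HSPD1 on the opposite strand, itself at group means of 336 FPKM in WT, 226 in labelled A20-KO and 191 in A20-RE. How reads are split between HSPE1 and HSPD1 is uncertain. HSPBP1, a nucleotide exchange factor of HSP70, was at 28.8, 36.8 and 51.3 FPKM in WT, 31.1, 26.5 and 40.9 FPKM in labelled A20-KO and 18.3, 15.3 and 19.5 FPKM in A20-RE, with WT 3 highest. AHSA1, which stimulates the ATPase of HSP90, was at 63.6, 62.5 and 73.1 FPKM in WT, 54.98, 52.9 and 60.6 FPKM in labelled A20-KO and 36.8, 33.3 and 39.0 FPKM in A20-RE, so its ratio of 0.648 lay near the bound. In HSPE1 and HSPBP1 the lowest of the other 6 libraries was library 2 labelled A20-KO, with 26.8 and 26.5 FPKM.

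The promoters of the HSP70 gene pair are shown because both genes stand near the head of the list and share the binding letters of HSF1, repeats of GAA on alternate strands. Each runs from 250 bases before to 50 bases after the RefSeq start (GRCh38.p14, plus strand), HSPA1A at chr6:31815293-31815592 and HSPA1B at chr6:31827488-31827787. Capitals mark GAANNTTC, which reads the same on both strands:
HSPA1A: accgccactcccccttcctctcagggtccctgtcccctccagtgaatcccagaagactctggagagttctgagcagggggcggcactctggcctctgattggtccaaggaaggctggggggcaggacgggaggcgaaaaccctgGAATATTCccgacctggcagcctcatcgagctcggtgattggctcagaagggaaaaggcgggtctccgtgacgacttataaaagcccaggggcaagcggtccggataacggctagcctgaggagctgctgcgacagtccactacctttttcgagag
HSPA1B: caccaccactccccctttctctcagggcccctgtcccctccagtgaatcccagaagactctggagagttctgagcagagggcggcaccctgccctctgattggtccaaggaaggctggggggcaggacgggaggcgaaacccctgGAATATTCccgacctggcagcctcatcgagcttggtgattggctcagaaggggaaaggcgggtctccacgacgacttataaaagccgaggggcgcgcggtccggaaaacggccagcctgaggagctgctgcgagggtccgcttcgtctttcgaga
The element begins 106 bases before the start in HSPA1A and 105 in HSPA1B. Aligned without gaps, the promoters had 277 of 299 bases in common. GAANNTTC was in 8 of the 230 member promoters matched by symbol (3.48%), in 4.35% of the 9247 promoters matched among the 11337 genes, and in 6.77% of all the promoters of the RefSeq table. TTCNNGAA, the other arrangement of the repeat, which can overlap the first, was in 10 member promoters (4.35%), in 5.96% of the matched promoters and in 7.74% of all. Neither was in the windows of DNAJB1, HSPE1, HSPBP1 or AHSA1.

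The wider family of heat shock proteins and co-chaperones, a list written after the members had been seen, had 40 tested genes with 6 members. Of the other 34, 11 fell from labelled A20-KO to A20-RE at an adjusted p under 0.05 in limma and 0 rose, with a median log2 fold change of -0.23. Of all genes tested 4.54% fell and 4.43% rose in that contrast. In labelled A20-KO against WT the median over the 40 genes was already -0.43 on the log2 scale. HSPA8, the constitutive HSC70, is the most abundant cytosolic HSP70 in most cells and was at 523, 414 and 461 FPKM in WT, at 273, 274 and 298 FPKM in labelled A20-KO and at 135, 133 and 157 FPKM in A20-RE. It thus stepped down at both contrasts, by a log2 fold change of -0.72 (adjusted p = 0.0041, limma) and then of -0.99 (adjusted p = 0.0036, limma). HSPH1, the HSP110 exchange factor, fell by 1.31 on the log2 scale from labelled A20-KO to A20-RE (adjusted p = 0.00072, limma), and DNAJA1, another HSP40, by 0.87 (adjusted p = 0.00265, limma). These 3 kept an adjusted p under 0.05 in all 21 alternatives. The count of 11 was 4 without library 1 labelled A20-KO, without A20-RE 1 or without A20-RE 2, 5 without library 2 or 3 labelled A20-KO, and 7 without WT 2 or A20-RE 3. It was also 5 with no variance trend, 7 with no filter on low values and 19 after GC centring with the replicate number as a block. HSF1 stood at a log2 fold change of -0.13 (adjusted p = 0.67, limma) and HSPA5, the HSP70 of the endoplasmic reticulum, at 0.08 (adjusted p = 0.70, limma).

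**Figure D3:**
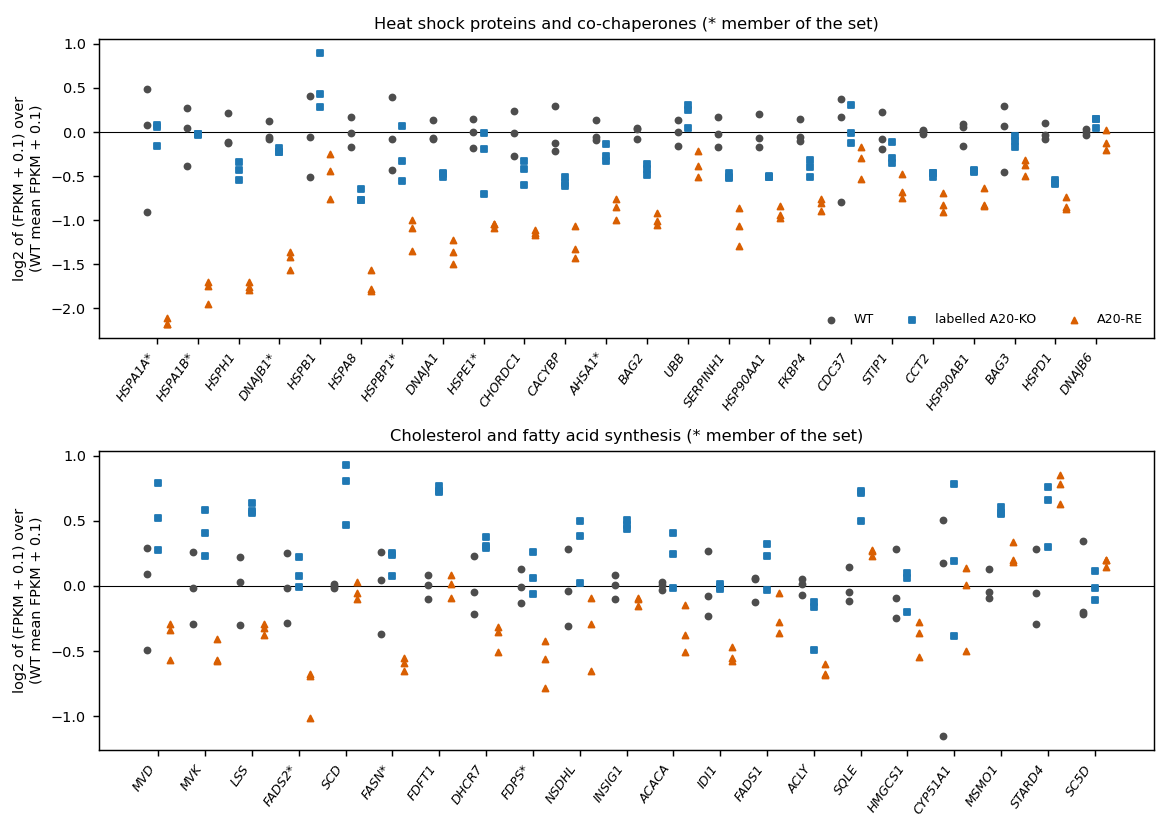
log2 of (FPKM + 0.1) in each library over (WT mean + 0.1) for the genes with the lowest A20-RE to labelled A20-KO ratio in the heat shock list (top) and in the sterol and fatty acid list (bottom); points are libraries and asterisks mark members. In the top panel HSPA8, HSPH1 and DNAJA1 step down at each contrast, and in the bottom panel SCD, FDFT1, LSS and INSIG1 lie above WT in labelled A20-KO.

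Sterol and fatty acid synthesis held 5 members among 25 listed genes. FASN, fatty acid synthase, had the highest level among all members, at 182, 243 and 282 FPKM in WT, 278, 280 and 248 FPKM in labelled A20-KO and 157, 160 and 150 FPKM in A20-RE. The lowest WT value of FASN was only 1.13 times its highest A20-RE value. FDPS, which makes farnesyl diphosphate, was at 18.7, 20.2 and 22.3 FPKM in WT, 21.3, 19.6 and 24.5 FPKM in labelled A20-KO and 13.8, 11.8 and 15.2 FPKM in A20-RE. FADS2, a fatty acid desaturase, was at 1.44, 1.75 and 2.13 FPKM in WT, 1.87, 1.76 and 2.08 FPKM in labelled A20-KO and 1.06, 1.07 and 0.829 FPKM in A20-RE. It overlaps FEN1 on the same strand, itself at group means of 74.5 FPKM in WT, 42.7 in labelled A20-KO and 23.1 in A20-RE. How reads are split between FADS2 and FEN1 is uncertain.

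Of all genes tested 4.54% fell and 4.43% rose from labelled A20-KO to A20-RE at an adjusted p under 0.05 in limma. Of the 20 other genes of the sterol and fatty acid list 12 fell and 0 rose. Several of them differed from the members in that they had been higher in labelled A20-KO than in WT. SCD, a fatty acid desaturase, was at 208, 204 and 205 FPKM in WT, 360.4, 391 and 285 FPKM in labelled A20-KO and 198, 209.8 and 192 FPKM in A20-RE, and its log2 fold changes were 0.74 (adjusted p = 0.0044, limma) and then -0.78 (adjusted p = 0.0101, limma). LSS, FDFT1, INSIG1, SQLE and MSMO1 also rose in the first contrast and fell in the second. IDI1 and ACACA had log2 fold changes of 0.01 and 0.21 in the first contrast, with adjusted p of 0.97 and 0.28 in limma, and fell in the second. The count of 12 was 5 without A20-RE 1 or A20-RE 2, and 7 without WT 2, library 1 labelled A20-KO or A20-RE 3. It was also 7 with no filter on low values or with no variance trend, and 16 after GC centring, the adjustment described further on. A further 7 members act on lipids outside the list, with ratios from 0.550 for LMF2, a maturation factor of lipases, to 0.668 for ECHS1, of mitochondrial fatty acid oxidation.

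Folding and entry of proteins at the endoplasmic reticulum accounted for 13 members. CNPY4, a canopy protein linked to the surface level of a Toll-like receptor, was at 1.17, 1.36 and 1.503 FPKM in WT, 1.496, 1.397 and 1.92 FPKM in labelled A20-KO and 0.605, 0.521 and 0.422 FPKM in A20-RE, on 24 to 35 reads in A20-RE. Its family member CNPY3, a chaperone of Toll-like receptors, was at 24.1, 30.2 and 37.3 FPKM in WT, 36.2, 33.2 and 42.7 FPKM in labelled A20-KO and 23.5, 21.0 and 23.6 FPKM in A20-RE, so WT 1 lay close to A20-RE. SDF2L1, a co-chaperone of HSPA5, was at 47.1, 71.4 and 85.3 FPKM in WT, at 72.2, 56.6 and 86.9 FPKM in labelled A20-KO and at 30.7, 25.8 and 35.3 FPKM in A20-RE. CRELD2 and DNAJB11 are induced by endoplasmic reticulum stress. CRELD2 was at 7.73, 9.47 and 10.996 FPKM in WT, 11.8, 9.14 and 12.7 FPKM in labelled A20-KO and 5.69, 5.204 and 6.19 FPKM in A20-RE. DNAJB11 was at 11.9, 10.7 and 10.1 FPKM in WT, 10.7, 9.59 and 11.2 FPKM in labelled A20-KO and 6.37, 5.95 and 7.31 FPKM in A20-RE, with little spread within groups. In A20-RE against labelled A20-KO 4.54% of all genes tested fell and 4.43% rose. Of the 18 other listed genes of the unfolded protein response 6 fell and 0 rose, MANF (-0.75, adjusted p = 0.041, limma) and CALR (-0.51, adjusted p = 0.034, limma) among them on the log2 scale. That count was 0 without A20-RE 1, 1 without A20-RE 2 or library 1 labelled A20-KO, 2 without A20-RE 3 and 3 without WT 2 or library 2 or 3 labelled A20-KO. It was also 2 with no variance trend and 3 with no filter on low values, and after GC centring 8 fell and 1 rose. EMC9 and EMC10 belong to the complex that inserts membrane proteins. EMC9 was at 9.49, 10.3 and 10.7 FPKM in WT, 10.2, 9.48 and 14.02 FPKM in labelled A20-KO and 7.22, 7.08 and 7.10 FPKM in A20-RE. EMC10 was at 10.05, 16.3 and 19.2 FPKM in WT, 12.96, 9.92 and 14.7 FPKM in labelled A20-KO and 8.23, 7.03 and 8.06 FPKM in A20-RE, and its spread in WT was wide. ASNA1, the ATPase that delivers tail-anchored proteins, had a ratio of 0.638.

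By role, 6 members were NF-kB related. CXCL8, the neutrophil chemokine interleukin-8, was at 1.26, 1.197 and 1.32 FPKM in WT, at 1.56, 1.57 and 1.245 FPKM in labelled A20-KO and at 0.658, 0.425 and 0.498 FPKM in A20-RE. CXCL1, also a neutrophil chemokine, was at 0.932, 1.51 and 0.895 FPKM, then 1.59, 1.44 and 0.861 FPKM, then 0.594, 0.560 and 0.369 FPKM. Both were low, with 24 to 35 reads in A20-RE for CXCL8 and 11 to 18 for CXCL1, whose sequence is close to that of CXCL2 and CXCL3. NFKBIB and NFKBIE encode inhibitors that hold NF-kB in the cytoplasm. NFKBIB was at 22.7, 27.5 and 35.04 FPKM in WT, 24.1, 22.4 and 26.6 FPKM in labelled A20-KO and 13.95, 12.8 and 17.3 FPKM in A20-RE. NFKBIE was at 6.12, 6.99 and 9.07 FPKM in WT, 6.30, 5.63 and 8.29 FPKM in labelled A20-KO and 3.50, 4.09 and 4.74 FPKM in A20-RE. In both, library 2 labelled A20-KO was the lowest outside A20-RE. TRAF2, an adaptor of TNF receptors, was at 5.61, 8.48 and 10.01 FPKM in WT, 6.93, 7.21 and 7.73 FPKM in labelled A20-KO and 4.04, 4.28 and 3.97 FPKM in A20-RE. IRAK2, a kinase below Toll-like receptors, was at 0.982, 1.09 and 1.04 FPKM in A20-RE against 1.43 to 1.95 FPKM elsewhere.

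The chemokine promoters are shown because both hold a run of the NF-kB letters GGANTTTCC, in capitals (RefSeq, GRCh38.p14, plus strand, CXCL8 at chr4:73740319-73740618 and CXCL1 at chr4:73869143-73869442):
CXCL8: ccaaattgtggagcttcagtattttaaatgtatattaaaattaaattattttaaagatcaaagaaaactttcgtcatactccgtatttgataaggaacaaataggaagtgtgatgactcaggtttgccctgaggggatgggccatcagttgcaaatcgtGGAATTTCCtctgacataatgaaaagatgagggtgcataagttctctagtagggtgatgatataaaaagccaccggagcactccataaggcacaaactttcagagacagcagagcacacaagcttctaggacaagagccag
CXCL1: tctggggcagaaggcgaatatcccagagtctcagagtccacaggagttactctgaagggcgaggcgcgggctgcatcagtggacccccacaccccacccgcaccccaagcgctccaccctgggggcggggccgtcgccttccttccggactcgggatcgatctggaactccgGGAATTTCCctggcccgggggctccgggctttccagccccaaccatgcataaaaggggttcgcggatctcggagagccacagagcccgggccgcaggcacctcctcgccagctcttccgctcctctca
The run begins 91 bases before the start in CXCL8 and 78 in CXCL1. On either strand, GGANTTTCC was in 4 of the 230 member promoters (1.74%), in 1.59% of the matched promoters and in 1.64% of all. In the main fit 4.54% of all genes tested fell and 4.43% rose from labelled A20-KO to A20-RE at an adjusted p under 0.05. The NF-kB list held 3 members, CXCL8, CXCL1 and NFKBIE, among 17 tested genes. Of its other 14 genes NFKB1, which encodes the p105 precursor, fell from labelled A20-KO to A20-RE by 0.59 on the log2 scale (adjusted p = 0.014, limma), and 0 rose. That call was lost without library 1 labelled A20-KO or A20-RE 1. NFKBIA stood at a log2 fold change of 0.21 (adjusted p = 0.45, limma), BIRC3 at 0.44 (adjusted p = 0.30, limma) and ICAM1 at -0.06 (adjusted p = 0.89, limma). After GC centring, described further on, 2 of the 14 fell and 1 rose. The median over these 14 was -0.16 on the log2 scale, with 9 below 0, beside 0.01 over all genes tested. A second list, of A20 partners and NF-kB machinery, held 1 member among 26 tested genes. Of its other 25 genes 0 fell and 3 rose, with a median of 0.11. The family of NF-kB inhibitors had 6 tested genes with 2 members. Of the other 4 inhibitors 0 passed in either direction, with a median of 0.14.

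A group of 8 members encodes developmental or signal-induced transcription factors and a regulator of Wnt receptors. SOX9, a factor of intestinal stem cells, was at 47.6, 51.5 and 58.1 FPKM in WT, at 48.8, 53.2 and 39.2 FPKM in labelled A20-KO and at 19.99, 20.2 and 21.2 FPKM in A20-RE, a ratio of 0.436 with no overlap and little spread in A20-RE. SP5, a direct target of Wnt signalling, was at 1.53, 2.62 and 3.88 FPKM, then 2.44, 2.25 and 2.62 FPKM, then 1.06, 0.861 and 0.782 FPKM. RNF43, a ubiquitin ligase that removes Wnt receptors, was at 8.57, 8.42 and 8.53 FPKM in WT, 7.74, 7.57 and 9.67 FPKM in labelled A20-KO and 5.08, 5.25 and 5.73 FPKM in A20-RE. Of the 13 other genes of the Wnt and stem cell list 2 fell and 0 rose, against 4.54% and 4.43% of all genes tested. With only the 2 groups compared, without WT 1 or after GC centring 2 rose, and with a pseudocount of 1 or at a mean FPKM of at least 1, 1 rose. With no filter on low values, with no variance trend, or without WT 2 or any labelled A20-KO or A20-RE library, 1 fell. AXIN2, a feedback inhibitor of the pathway, was at 9.80, 13.0 and 12.6 FPKM in WT, 5.72, 5.85 and 5.30 FPKM in labelled A20-KO and 2.86, 3.19 and 3.15 FPKM in A20-RE, a log2 fold change of -0.85 in the second contrast (adjusted p = 0.0062, limma). BMP4 fell by 0.38 (adjusted p = 0.037, limma), a call that was lost in 9 of 21 alternatives, among them each one that left out a labelled A20-KO or an A20-RE library. MYC and CCND1, also in the list, had log2 fold changes of 0.17 (adjusted p = 0.41, limma) and 0.33 (adjusted p = 0.052, limma).

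FOXC1, a forkhead factor, was at 13.0, 11.7 and 13.2 FPKM in A20-RE and at 20.7 to 24.6 FPKM in the other libraries. EGR3, an immediate early factor, was at 1.14, 1.5001 and 1.4004 FPKM in WT, 1.246, 1.48 and 1.31 FPKM in labelled A20-KO and 0.740, 0.548 and 0.690 FPKM in A20-RE. TLX3, LHX2 and MESP1, homeobox and basic helix-loop-helix factors of development, had ratios of 0.472, 0.549 and 0.619 at A20-RE means of 1.66, 3.27 and 1.72 FPKM.

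Cell cycle and DNA repair genes made up 22 members. RECQL4, a replication helicase, was at 51.0, 72.1 and 81.7 FPKM in WT, at 54.4, 46.9 and 62.6 FPKM in labelled A20-KO and at 25.7, 22.2 and 25.2 FPKM in A20-RE. H2AFX, the histone variant phosphorylated at DNA breaks, was at 143, 193 and 256 FPKM, then 182, 170 and 222 FPKM, then 89.9, 73.6 and 98.6 FPKM. In both, WT 1 was the lowest WT library and still lay well above A20-RE. TREX2, a DNA exonuclease, was at 0.772, 1.08 and 1.72 FPKM in WT, 1.29, 1.42 and 1.31 FPKM in labelled A20-KO and 0.378, 0.445 and 0.561 FPKM in A20-RE, on 24 to 35 reads in A20-RE, and it overlaps HAUS7 on the same strand. CDKN2A and CDKN2C encode inhibitors of the kinases that D-type cyclins activate. CDKN2A was at 9.11, 11.1 and 14.7 FPKM in WT, 11.4, 9.82 and 12.6 FPKM in labelled A20-KO and 4.87, 5.19 and 5.35 FPKM in A20-RE. CDKN2C was at 2.67, 2.71 and 2.84 FPKM in WT, 2.46, 2.27 and 2.35 FPKM in labelled A20-KO and 1.22, 1.59 and 1.57 FPKM in A20-RE. CCND3, a D-type cyclin, was at 4.19 to 5.05 FPKM in A20-RE against 7.33 to 10.5 FPKM. In all 3 genes the A20-RE libraries lay below the other 6. UBE2S, which builds ubiquitin chains for the anaphase-promoting complex, was at 113, 121.96 and 153 FPKM in WT, 128, 99.6 and 150.1 FPKM in labelled A20-KO and 75.0, 67.1 and 81.3 FPKM in A20-RE. It overlaps RPL28 on the opposite strand, itself at group means of 98.1, 157 and 174 FPKM. CKS2, a subunit of cyclin-dependent kinases, was at 93.6, 133 and 129.7 FPKM in WT, 118, 119.6 and 142 FPKM in labelled A20-KO and 79.4, 72.1 and 79.3 FPKM in A20-RE. H2AFZ, a histone variant at gene starts, was at 158, 194 and 218 FPKM in WT, 161, 138 and 187 FPKM in labelled A20-KO and 102, 95.9 and 108 FPKM in A20-RE, and like CKS2 it lay close to the bound. The list of replication and mitosis genes held 0 members, although 16 of its 30 genes fell and 0 rose in A20-RE against labelled A20-KO. Of all genes tested 4.54% fell and 4.43% rose there. The median of that list was -0.86 on the log2 scale in labelled A20-KO against WT, a drop outside the bounds of the rule.

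Mitochondrial proteins were the largest of the 15 groups by role, with 28 members, and had some of the smallest steps, with a median ratio of 0.628. SLC25A10, the dicarboxylate carrier and the lowest of them by ratio, was at 9.11, 12.7 and 15.7 FPKM in WT, 11.7, 9.36 and 13.8 FPKM in labelled A20-KO and 5.53, 4.23 and 6.34 FPKM in A20-RE. Of 37 mitochondrial carriers 3 were members. SLC25A11, the oxoglutarate carrier, was at 20.5, 21.2 and 28.3 FPKM in WT, 24.9, 22.3 and 27.2 FPKM in labelled A20-KO and 15.9, 15.1 and 17.4 FPKM in A20-RE. SLC25A20, the acylcarnitine carrier, was at 6.24, 6.38 and 7.18 FPKM in WT, 5.36, 6.28 and 6.80 FPKM in labelled A20-KO and 4.47, 3.802 and 3.89 FPKM in A20-RE. The ratios of the latter pair, 0.652 and 0.665, lay near the bound. NDUFS6 of complex I was at 23.3, 29.3 and 34.3 FPKM in WT, 27.2, 31.5 and 40.7 FPKM in labelled A20-KO and 18.8, 14.9 and 21.6 FPKM in A20-RE. NDUFB2 was at 7.29, 9.59 and 9.89 FPKM in WT, 9.27, 7.27 and 11.6 FPKM in labelled A20-KO and 5.80, 4.63 and 6.56 FPKM in A20-RE. The assembly factor NDUFAF8 was at 32.2, 24.02 and 29.6 FPKM in WT, 19.6, 20.3 and 29.3 FPKM in labelled A20-KO and 13.7, 13.1 and 18.4 FPKM in A20-RE. Library 3 labelled A20-KO was the highest of its group in NDUFS6 and NDUFB2. UQCRQ of complex III was at 63.7, 63.3 and 64.5 FPKM in WT, 62.3, 78.8 and 79.0 FPKM in labelled A20-KO and 49.3, 36.8 and 57.3 FPKM in A20-RE. Among mitochondrial ribosomal proteins 6 of 76 were members. MRPL52 was at 8.65, 12.9 and 12.4 FPKM in WT, 11.3, 10.98 and 13.02 FPKM in labelled A20-KO and 7.57, 6.58 and 6.98 FPKM in A20-RE. MRPL41 was at 61.7, 46.8 and 53.5 FPKM in WT, 55.2, 45.1 and 75.1 FPKM in labelled A20-KO and 39.6, 32.3 and 43.8 FPKM in A20-RE. In MRPL52 WT 1 was close to A20-RE, and in MRPL41 library 2 labelled A20-KO was. MRPL11 was at 26.02, 26.9 and 32.6 FPKM in WT, 21.7, 19.6 and 27.2 FPKM in labelled A20-KO and 15.9, 11.9 and 16.6 FPKM in A20-RE. MRPL53 was at 2.67, 2.38 and 2.92 FPKM in WT, 3.09, 2.45 and 2.62 FPKM in labelled A20-KO and 1.97, 1.08 and 2.17 FPKM in A20-RE. Both members of the small ribosomal subunit had like steps. MRPS11 was at 3.803, 4.24 and 4.54 FPKM in WT, 3.12, 3.56 and 4.17 FPKM in labelled A20-KO and 2.30, 2.08 and 2.27 FPKM in A20-RE. MRPS26 was at 47.2, 62.8 and 70.4 FPKM in WT, 56.0, 50.2 and 68.4 FPKM in labelled A20-KO and 36.9, 31.8 and 40.9 FPKM in A20-RE. MRPL11, MRPL53, MRPS11 and MRPS26 had ratios of 0.650, 0.653, 0.623 and 0.628, so all 6 lay above 0.6. Of the other 70 of that family 4 fell and 0 rose, and of the 42 other complex I subunits and assembly factors 3 fell and 0 rose in A20-RE against labelled A20-KO. Of all genes tested 4.54% fell and 4.43% rose in this contrast. Without the members, the medians of these families were -0.22 and -0.38 on the log2 scale.

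V-ATPase subunits, which acidify lysosomes, held 3 members of 18, all of the membrane sector. ATP6V0E2 was at 5.86, 5.95 and 7.22 FPKM in WT, 6.50, 5.33 and 7.47 FPKM in labelled A20-KO and 2.86, 2.97 and 3.55 FPKM in A20-RE. ATP6V0D1 was at 7.39, 7.44 and 9.78 FPKM in WT, 7.73, 6.93 and 9.31 FPKM in labelled A20-KO and 4.01, 3.77 and 5.12 FPKM in A20-RE. ATP6V0B was at 21.2, 25.8 and 31.8 FPKM in WT, 28.8, 24.3 and 32.2 FPKM in labelled A20-KO and 19.3, 15.8 and 20.1 FPKM in A20-RE, with WT 1 close to A20-RE. Of the other 15 subunits 0 passed the test in limma in either direction. DHHC palmitoyltransferases held 4 of 21. ZDHHC6, which acts in the endoplasmic reticulum, was at 35.7, 26.9 and 24.2 FPKM in WT, 22.3, 23.6 and 23.5 FPKM in labelled A20-KO and 13.8, 13.6 and 15.5 FPKM in A20-RE. ZDHHC12 was at 12.7, 14.6 and 19.6 FPKM in WT, 14.8, 15.5 and 21.4 FPKM in labelled A20-KO and 10.4, 7.62 and 11.9 FPKM in A20-RE. ZDHHC14 was at 1.23, 1.33 and 1.61 FPKM in WT, 1.77, 1.68 and 1.71 FPKM in labelled A20-KO and 1.02, 0.946 and 0.959 FPKM in A20-RE. WT 1 was the lowest of the other 6 libraries in ZDHHC12 and ZDHHC14. ZDHHC16 was at 11.6, 11.02 and 12.7 FPKM in WT, 11.7, 9.29 and 12.5 FPKM in labelled A20-KO and 6.17, 6.68 and 7.06 FPKM in A20-RE. The group means of ZDHHC14 and ZDHHC16 gave ratios of 0.590 and 0.598, so the 4 lay close together. Of the other 17 none fell and ZDHHC9 rose by 0.43 on the log2 scale (adjusted p = 0.026, limma). Among proteasome subunits and activators PSMA7, of the core particle, was at 124, 161 and 169 FPKM in WT, 128, 101 and 148 FPKM in labelled A20-KO and 70.0, 65.7 and 83.9 FPKM in A20-RE. PSME2, of the PA28 activator, was at 18.6, 18.2 and 19.7 FPKM in WT, 23.2, 17.6 and 26.6 FPKM in labelled A20-KO and 13.2, 12.4 and 15.3 FPKM in A20-RE. Of the other 35 genes of that family 10 fell and 0 rose, against 4.54% and 4.43% of all genes tested. In labelled A20-KO against WT the median over the 37 genes of the family was already -0.46 on the log2 scale. RNA processing and ribosome assembly held 20 members, from SNRNP25 of the minor spliceosome (0.433) to NOC4L (0.668). LSM4 and LSM6 belong to the ring that binds the ends of spliceosomal RNA. LSM4 was at 76.1, 86.4 and 107 FPKM in WT, 90.8, 86.2 and 109 FPKM in labelled A20-KO and 65.3, 51.3 and 63.5 FPKM in A20-RE. LSM6 was at 3.84, 4.70 and 4.61 FPKM in WT, 4.99, 3.65 and 5.19 FPKM in labelled A20-KO and 2.80, 3.17 and 2.53 FPKM in A20-RE. They had ratios of 0.631 and 0.623, and 0 of the other 11 LSM proteins passed the test. Chromatin and general transcription held 23, from BANP (0.438), a transcription factor of unmethylated CpG sites, to INO80E (0.669), a subunit of the INO80 remodeller.

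Centrosome, cilium and microtubule genes held 13 members. CEP19, a ciliary centrosome protein, was at 2.54, 2.55 and 2.20 FPKM in WT, 3.44, 3.12 and 2.42 FPKM in labelled A20-KO and 1.30, 0.915 and 1.32 FPKM in A20-RE. TUBG1, the gamma-tubulin that nucleates microtubules, was at 22.5, 22.4 and 27.1 FPKM against 34.96 to 51.0 FPKM. Receptors and ion channels held 9 members at low levels. CHRNA5, a nicotinic receptor subunit, was at 1.48, 1.68 and 1.66 FPKM in A20-RE against 3.20 to 4.34 FPKM, and HTR1D, a serotonin receptor, at 1.09, 1.11 and 1.197 FPKM against 2.02 to 2.67 FPKM. EFNA4, an ephrin ligand in no role group, was at 11.4, 13.3 and 14.9 FPKM in WT, 10.7, 7.99 and 13.1 FPKM in labelled A20-KO and 5.01, 5.201 and 5.34 FPKM in A20-RE. Cytosolic metabolic enzymes held 14, led by ASRGL1 and PGP. ASRGL1, an asparaginase, was at 3.86, 3.44 and 4.23 FPKM in WT, 3.45, 2.99 and 3.56 FPKM in labelled A20-KO and 1.42, 1.15 and 1.46 FPKM in A20-RE, and PGP, phosphoglycolate phosphatase, had a ratio of 0.426. PGD, of the pentose phosphate pathway, was at 63.0, 68.01 and 80.3 FPKM in WT, 75.4, 70.6 and 82.8 FPKM in labelled A20-KO and 49.1, 44.7 and 51.5 FPKM in A20-RE. CHAC1, a glutathione-degrading enzyme induced by ATF4, was at 5.60, 5.91 and 8.94 FPKM in WT, 5.70, 5.55 and 5.59 FPKM in labelled A20-KO and 3.82, 3.37 and 3.53 FPKM in A20-RE, with WT 3 highest. The lysosome and vesicle group held 11, with AP2S1, an adaptor of clathrin, at 55.1, 47.5 and 63.3 FPKM in A20-RE against 80.4 to 131 FPKM elsewhere.

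The 15 groups by role, assigned after the members had been seen, take in 195 members, and 76 fell in none. Among the latter, NRGN, a calmodulin-binding protein, was at 35.3, 34.9 and 45.8 FPKM in WT, 39.0, 32.9 and 54.2 FPKM in labelled A20-KO and 15.7, 13.3 and 18.9 FPKM in A20-RE. MARCKSL1, an actin-associated protein, was at 66.1, 62.3 and 78.1 FPKM in A20-RE against 91.3 to 115 FPKM elsewhere. GLB1L, a relative of beta-galactosidase, was at 1.56, 1.54 and 1.38 FPKM in WT, 1.68, 1.44 and 1.46 FPKM in labelled A20-KO and 0.514, 0.603 and 0.625 FPKM in A20-RE, with little spread in each group. PHTF1 was at 0.799, 0.792 and 0.649 FPKM in A20-RE against 1.80 to 2.29 FPKM elsewhere. DRICH1 was at 1.21, 0.738 and 0.768 FPKM in WT, 1.30, 0.906 and 0.989 FPKM in labelled A20-KO and 0.329, 0.279 and 0.468 FPKM in A20-RE. SRPK3, a muscle kinase, was at 0.756, 1.44 and 1.12 FPKM in WT, 0.928, 0.943 and 1.29 FPKM in labelled A20-KO and 0.442, 0.348 and 0.358 FPKM in A20-RE. Both were among the lowest in level. NUP210, of the nuclear pore, had the narrowest gap of all, its lowest WT or labelled A20-KO value being 1.00 times its highest A20-RE value. Over all members the lowest number of reads in a library was at least 100 in 232 members and under 20 in 3, BOLA2B, DRICH1 and CXCL1.

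GC content moved with membership. The longest transcript of the members had a median GC content of 57.2%, against 49.3% over the 11330 eligible genes with a value. In 5 equal groups by GC content, the share of genes that were members went in order from 0.7502% through 1.103%, 2.12% and 3.31% to 4.68%. The median log2 ratio of A20-RE to labelled A20-KO over all genes went from 0.10 in the group of lowest GC content to -0.24 in that of the highest. By library, WT 1 stood farthest from the others, with a median deviation of 0.39 in the lowest and -0.54 in the highest group on the log2 scale, and library 3 labelled A20-KO ran the other way, from -0.27 to 0.36. Within their group, WT 1 was the lowest library in 72.0% of members against 42.6% of eligible genes. Library 2 labelled A20-KO was lowest in 69.4% against 38.7%, and A20-RE 2 in 64.2% against 45.2%. Members also had shorter gene models, with a median of 3623 bases against 5033, and 4.63% of the genes in the shortest of 5 equal groups were members against 0.838% in the longest.

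**Figure D4:**
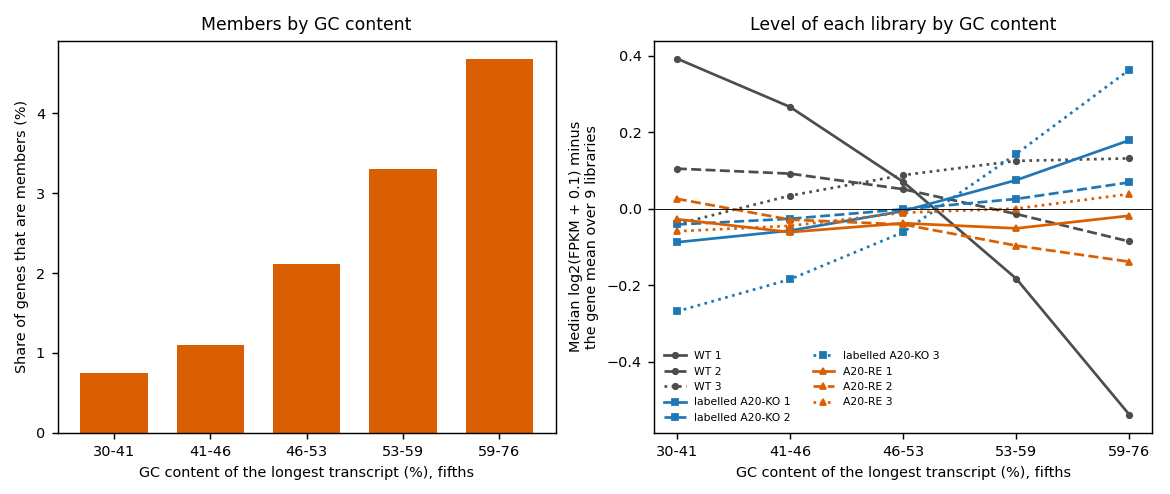
Left, share of eligible protein-coding genes that are members (bars, %) in 5 equal groups by the GC content of the longest transcript, which rises from 0.7502% to 4.68%. Right, median over the genes of each GC group of log2(FPKM + 0.1) minus the gene's mean over the 9 libraries, one line per library, with WT 1 falling from 0.39 to -0.54.

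The members were therefore set out again after GC centring, in which the median deviation of genes of like GC content, in 50 bins, was taken from each library. This alternative was chosen after the data had been seen. All 271 members kept a log2 ratio of A20-RE to labelled A20-KO below 0, with a median ratio of 0.655, and 158 kept a ratio of at most 0.67. The A20-RE values stayed below the other 6 in 258 members. The ratio of labelled A20-KO to WT, however, left its bounds in 101 members, in 84 of them below 0.8. The whole rule on centred values took 182 genes, of which 104 were among the 271. Among these 104 were HSPA1A, HSPA1B, DNAJB1, HSPE1, FADS2, SOX9, EGR3, BANP and ZDHHC6. CXCL8, CXCL1, FASN, FDPS, RECQL4, H2AFX, SDF2L1 and NFKBIB were not. By role, 7 of the 9 receptors and channels, 4 of the 6 heat shock genes and 12 of the 23 chromatin genes met the rule on centred values, against 7 of 22 cell cycle and repair genes, 3 of 12 lipid genes and 1 of 6 NF-kB genes. The bound of 0.67 alone was kept by 8, 4 and 15 of the first 3 groups. It was kept by 13 cell cycle and repair genes, 4 lipid genes and 4 NF-kB genes. The part of GC content in the result was not tested.

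Members were spread over the chromosomes. On chromosome 16, 22 of 550 eligible genes were members (4%), on chromosome 22, 11 of 296 (3.72%), and on chromosome 19, 27 of 835 (3.23%), against 1 of 149 on chromosome 18 (0.671%). The median GC content of these chromosomes' genes was 55.7%, 56.7%, 59.9% and 43.2%. The share did not follow GC content throughout: it was 3.06% on chromosome X, at a median GC content of 47.6%, and 1.59% on chromosome 20, at 52.0%. Between 29815952 and 30572734 on the short arm of chromosome 16, 7 of 34 eligible genes were members: PAGR1, HIRIP3, INO80E, CORO1A, BOLA2B, ZNF48 and ZNF688. The other 27 had a median log2 ratio of -0.29. When the eligible genes, protein-coding and at 1 FPKM or more in a group, were put in order of position, members followed each other in 10 runs. Genes below that level can lie between them, as EMX1 does between SPR and SFXN5, GDF9 between SHROOM1 and UQCRQ, and MRPL46 between KLHL25 and MRPS11, whose run spans 2721450 bases. Beside the HSP70 pair, CXCL8 with CXCL1, and HCN3 with FDPS and RUSC1 on chromosome 1, they were TMEM79 with GLMP, EMC9 with PSME2, KLHL25 with MRPS11, HIRIP3 with INO80E, CORO1A with BOLA2B, SPR with SFXN5 and SHROOM1 with UQCRQ. The ratios of the run members not given above were 0.559 (HCN3), 0.634 (RUSC1), 0.531 (TMEM79), 0.665 (GLMP), 0.650 (KLHL25), 0.628 (SPR), 0.588 (SFXN5), 0.524 (SHROOM1), 0.547 (HIRIP3) and 0.5795 (CORO1A). Levels within a run differed, as for TMEM79 and GLMP. HCN3, a pacemaker channel, was at 4.28, 4.59 and 4.07 FPKM in WT, 4.50, 4.13 and 4.75 FPKM in labelled A20-KO and 2.44, 2.43 and 2.48 FPKM in A20-RE. RUSC1 was at 16.3, 15.5 and 18.3 FPKM in WT, 14.3, 12.6 and 15.5 FPKM in labelled A20-KO and 9.17, 8.59 and 8.97 FPKM in A20-RE. TMEM79 was at 2.43, 2.10 and 2.45 FPKM in WT, 2.05, 1.70 and 2.27 FPKM in labelled A20-KO and 0.823, 1.01 and 1.22 FPKM in A20-RE. HCN3 had little spread in each group, and TMEM79 stayed under 3 FPKM. GLMP, a lysosomal membrane protein, was at 5.04, 5.63 and 5.88 FPKM in WT, 5.11, 5.67 and 6.22 FPKM in labelled A20-KO and 3.78, 3.41 and 4.01 FPKM in A20-RE. KLHL25, a ubiquitin ligase adaptor, was at 1.31, 2.21 and 2.22 FPKM in WT, 1.73, 1.54 and 1.84 FPKM in labelled A20-KO and 1.11, 1.04 and 1.06 FPKM in A20-RE. SPR, sepiapterin reductase, was at 29.6, 38.7 and 48.2 FPKM in WT, 37.3, 34.8 and 42.8 FPKM in labelled A20-KO and 23.9, 23.0 and 25.2 FPKM in A20-RE. The WT 1 value was the lowest of its group in these 3 genes. SFXN5, a sideroflexin of mitochondria, was at 1.37, 1.45 and 1.86 FPKM in WT, 1.496, 1.63 and 1.80 FPKM in labelled A20-KO and 0.864, 0.814 and 1.09 FPKM in A20-RE. SHROOM1, an actin-binding protein, was at 3.28, 4.998 and 6.09 FPKM in WT, 4.54, 4.14 and 4.71 FPKM in labelled A20-KO and 2.28, 2.43 and 2.17 FPKM in A20-RE. HIRIP3, a histone-binding protein, was at 3.17, 5.09 and 5.50 FPKM in WT, 4.05, 4.02 and 5.12 FPKM in labelled A20-KO and 2.36, 2.27 and 2.45 FPKM in A20-RE. WT 1 was again the lowest in WT in these. INO80E was at 5.31, 8.28 and 9.999 FPKM in WT, 6.43, 5.62 and 7.94 FPKM in labelled A20-KO and 4.46, 4.08 and 4.73 FPKM in A20-RE. CORO1A, an actin-binding coronin, was at 1.17, 2.06 and 2.48 FPKM in WT, 1.63, 1.22 and 2.28 FPKM in labelled A20-KO and 1.03, 0.927 and 0.893 FPKM in A20-RE. In both, WT 1 and library 2 labelled A20-KO were the lowest outside A20-RE. HIRIP3 and INO80E overlap on opposite strands, and FDPS and RUSC1 both overlap RUSC1-AS1. In all, 55.4% of members overlap a gene on the opposite strand, against 56.5% of eligible genes, and whether the counting used strand was not given in the sources used here, so reads of such pairs cannot be told apart.

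Genes next to members, which the rule had not taken, were tested in the same fit. The nearest tested gene on each side of every member, which can overlap the member, gave 524 genes, 364 of them protein-coding. Of these, 34 (6.49%) were lower in A20-RE than in labelled A20-KO at an adjusted p under 0.05 in limma, against 4.54% of all genes tested, and 12 (2.29%) were higher, against 4.43%. Their median log2 fold change was -0.14. The share of neighbours that were lower was above that of all genes in each of the 22 settings tried, but both moved widely. It was 1.15% against 0.961% without A20-RE 1, 1.15% against 1.09% without A20-RE 2, 1.91% against 1.13% without library 1 labelled A20-KO and 2.29% against 1.95% without library 3. It was 3.82% against 2.55% without WT 2, 3.63% against 2.23% without A20-RE 3 and 13.7% against 8.28% without WT 1. The 303 neighbours among the eligible genes had a median GC content of 56.4%, close to that of the members, and its part in the result was not tested. With the 2-fold bound added, 9 neighbours (1.72%) were lower, against 0.832% of all genes. They were LEAP2, BRICD5, GPR162, ATP6V0E2-AS1, RNU2-51P, ISCA1P4, AC006538.1, AC027228.2 and AC005393.1. The antisense gene ATP6V0E2-AS1, at -1.53 on the log2 scale (adjusted p = 0.016, limma), overlaps the member ATP6V0E2 on the opposite strand. AC027228.2 overlaps the member CHRNA5 on the opposite strand, and GPR162 overlaps the member P3H3 on the same strand. How reads are split within these pairs is uncertain, so these neighbours may not be independent of the members.

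In the promoters, 20 motifs were searched on both strands in the 230 member windows. The CCAAT box was in 46.5% of member promoters, against 37.0% of the matched promoters and 34.6% of all. The letters GGAATG of TEAD factors were in 4.78%, against 10.3% and 14.03%. The GC box GGGCGG was in 68.3% of member promoters, against 73.0% of the matched ones, and the TATA box TATAAA in 5.22% of both. TCACNCCAC, the sterol regulatory letters, was in 2 member promoters, those of PIR and PPIH, and not in the windows of FDPS or FADS2. These shares are descriptions of letters in short windows, chosen for print after their values were seen.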

How the data were processed

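RNA of HCT116 cells was sequenced in 9 libraries, with 3 libraries in every group. Per the labels and the study's methods, the authors prepared poly-A libraries, aligned paired-end reads with HISAT2 (2.0.5), counted them on genes with featureCounts (1.5.0-p3) and deposited FPKM per gene. Whether counting used strand was not given in the sources used here. The gene coordinates equal those of GENCODE 29 on GRCh38.

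Groups were taken from the labels. The rule for members was applied to the deposited FPKM. The members, gene lists, families and roles were chosen with earlier results of these data known. Log2(FPKM + 0.1) of 21636 genes (those whose mean FPKM reached 0.1) was fitted with limma (3.58.1, R 4.3.3) with a variance trend and the group as the only term, and p-values were adjusted by Benjamini-Hochberg over all genes. FPKM are not counts, so limma-voom on the recovered whole reads was an alternative only. Divided by the size of 1 read, 100% of the values came out whole within 0.02, a tolerance that widened in proportion for values with many reads. For the highest values the check could not fail. Log fold changes with 0.1 added understate changes of low genes. Scripts were tested on simulated data. Where RefSeq gave several promoters of a gene, the one nearest to the start in the deposited table was used.

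Named in full are the 14 members with the lowest ratio, the 6 with the highest level, members of a list, a run or a family, and the 4 members and 4 genes beside the bound. Some genes that this rule takes are not reported here. Other members were named for their role after their values were seen. Alternatives were pseudocounts of 1 and 0.01, other filters and scalings, the replicate block, only the 2 groups compared, no variance trend, ratio bounds of 0.6 and 0.75, each library left out, and GC centring, alone and with the block, added later.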

Additional observations from a re-analysis of the deposited data

How the results depend on the processing

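Depth and replicate number limit these values: low members rest on few reads, and 3 libraries per group give wide errors. Genes called lower in A20-RE against labelled A20-KO numbered 180, but 39 with a pseudocount of 1 and 99 at a mean FPKM of at least 1, and from 89 to 219 with 1 library left out (89 without A20-RE 1 or 2, 91 and 104 without labelled A20-KO 1 and 3). Genes called lower against WT numbered 910, and 432 with a pseudocount of 1 (852 to 920 with 1 library left out). Genes called in labelled A20-KO against WT numbered 1512, but 472 with a pseudocount of 1 and 931 at a mean FPKM of at least 1 (1186 to 1765 with 1 library left out). Genes next to members that were lower numbered 34, but 20 with no filter, 55 scaled to total reads, 60 with only the 2 groups compared, 19 with no variance trend, 65 with limma-voom, 59 after GC centring and 76 after GC centring with the block, and from 6 to 72 with 1 library left out. The rule took 271 genes, 119 with a ratio bound of 0.6 and 533 with 0.75, and from 201 to 375 with 1 library left out. With a pseudocount of 1 it took 181 genes, of which 174 were among the 271. The causes were not tested.

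In the fit with a replicate block, the neighbours that were lower numbered 55, and the other 3 counts of genes came to 180, 926 and 1557, while 1 gene each of the Wnt and unfolded protein response lists rose. Correlations of the deviations of same-numbered libraries ran from -0.186 to 0.608, with a mean of 0.218. Those of differently numbered libraries ran from -0.638 to 0.4145, with a mean of -0.108. Same-numbered libraries thus deviated together more on average, but not throughout. The labels state no pairing, so the numbers were not taken to pair the libraries.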

Other observations

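Of the 2428 noncoding genes at 1 FPKM or more in a group, 25 met the same bounds as the members. They include LINC00342, LINC00265, the antisense gene PTOV1-AS2, IQCH-AS1, and the mitochondrial tRNA gene MT-TK. The last rests on 4, 4 and 6 reads in A20-RE and on 9 to 27 reads in the other libraries.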
